A study of Mus musculus with 24 samples.

Results

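Splicing factors and heterogeneous nuclear ribonucleoproteins (hnRNPs) were followed over 4 h of restimulation in mouse Th1 effector cells, the helper T cells known for interferon gamma. The members were the genes whose symbol starts with Srsf, Hnrnp, Snrp, Sf3a or Sf3b, and the table of 9420 genes held 47 of them. They comprised 10 Srsf, 18 Hnrnp, 10 Snrp and 9 Sf3a or Sf3b genes. The annotated protein-coding genes Hnrnpa3, Hnrnpu, Snrpg, Snrpn and Srsf12 also carry these prefixes and were not analysed here. All 47 members passed the filter on low values in each kind of library with a replicated test.

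The cells were CD4+ and came from mice of the DO11.10 strain, which carries a T cell receptor transgene. They were restimulated on plates coated with goat anti-hamster IgG, through antibodies to CD3 at 1 µg/ml and to CD28 at 2.5 µg/ml. Cells at 0 h served as the resting reference. Newly transcribed RNA was labelled with 4-thiouridine (4sU), a uridine analogue that lets recently made RNA be isolated, at 200 µM for 1 h. These 4sU libraries covered 0, 1 and 4 h in 2 replicates and 2 and 3 h in 1 library each. A pair of libraries labelled with 500 µM 4sU for 0.5 h covered 0 and 0.5 h. Total RNA covered 0 and 4 h in 2 replicates, 1 h in replicate 2 alone and 2 h in replicate 1 alone. Ribosome-protected fragments (RP), the mRNA pieces shielded by translating ribosomes, covered 0, 1 and 4 h in 2 replicates and 0.5 and 2 h in replicate 1. The labels give no age and tie no replicate to an animal or culture of its own, so the p-values speak only of the spread among these libraries, which may be technical.

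Pre-mRNA splicing removes introns through the spliceosome, which is built from small nuclear ribonucleoproteins (snRNPs). The Snrp genes encode the Sm proteins that ring the spliceosomal RNAs and proteins proper to the U1 and U2 snRNPs, and the SF3A and SF3B subunits belong to the U2 snRNP that recognises the branch point. SR proteins (Srsf) and hnRNPs bind exons and introns and favour or repress the use of splice sites, and in T cells hnRNP L and hnRNP LL control the alternative exons of the surface phosphatase CD45. Many SR protein and hnRNP genes also regulate their own transcripts through exons that trigger mRNA decay.

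Promoter windows from RefSeq (GRCm38.p6, 250 bases before to 50 after the start) were found for 41 of the 47 members. Those of 3 members whose newly transcribed RNA followed different courses are shown. Their courses are given for the libraries with the 1 h label. Snrpa encodes an RNA-binding protein of the U1 snRNP and was highest at 4 h. Srsf5 encodes an SR protein that was highest at 1 h, and Hnrnpa1, a splicing repressor, was high at both times. Capitals mark matches, on either strand, to CACGTG (E-box), TGACGTCA (cAMP response element), CCGGAAG (ETS motif, also read as CTTCCGG) and TATAAA, none of which contains another.
Snrpa, chr7:27196222-27196521, minus strand: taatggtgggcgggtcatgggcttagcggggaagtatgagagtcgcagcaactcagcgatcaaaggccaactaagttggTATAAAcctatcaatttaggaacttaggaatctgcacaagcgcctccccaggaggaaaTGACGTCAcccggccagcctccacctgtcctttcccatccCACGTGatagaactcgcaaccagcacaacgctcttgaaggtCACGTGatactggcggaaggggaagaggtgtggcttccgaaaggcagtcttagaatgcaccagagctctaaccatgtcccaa
Srsf5, chr12:80945249-80945548, plus strand: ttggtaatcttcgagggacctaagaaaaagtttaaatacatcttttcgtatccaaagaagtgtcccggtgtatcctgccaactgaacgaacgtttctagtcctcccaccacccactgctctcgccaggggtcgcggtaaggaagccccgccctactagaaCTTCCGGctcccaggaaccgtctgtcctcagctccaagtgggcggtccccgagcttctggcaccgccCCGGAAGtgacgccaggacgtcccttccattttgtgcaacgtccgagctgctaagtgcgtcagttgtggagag
Hnrnpa1, chr15:103240147-103240446, plus strand: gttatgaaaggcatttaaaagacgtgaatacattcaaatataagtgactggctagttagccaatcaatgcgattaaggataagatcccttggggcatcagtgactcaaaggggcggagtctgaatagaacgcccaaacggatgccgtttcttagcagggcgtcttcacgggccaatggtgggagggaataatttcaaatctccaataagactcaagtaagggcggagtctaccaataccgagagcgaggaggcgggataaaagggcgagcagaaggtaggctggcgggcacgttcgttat
The Snrpa window held 2 E-boxes, whose first bases lay 32 and 73 bases before the start, with the cAMP response element at 113 and TATAAA at 171 bases before it. The Srsf5 window held 2 ETS matches, at 23 and 90 bases before the start, and the Hnrnpa1 window held none of the motifs.

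Across all members with a window, the E-box occurred in 4 of 41 (9.76%) against 10.8% of the 7562 promoters of the table, and the cAMP response element in 1 (2.44%) against 3.58%. The ETS motif occurred in 15 (36.6%) against 21.8%, with 6 of the 7 Sf3a and Sf3b windows among them and 2 of the 16 Hnrnp windows. TATAAA occurred in 6 (14.6%) against 6.02%. A match describes the letters of the window and does not show that a factor binds there.

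Several families have many processed copies in the genome, which bears on how their reads can be assigned. The share of the 29-base words of each coding sequence that also occurs in annotated transcripts of other genes had a median of 14.8% over the members. It was under 1% in 11 members and over 50% in 16. The highest shares were 97.9% for Hnrnpf, 94.4% for Srsf3 (7 other genes, 6 of them pseudogenes), 86.8% for Hnrnpk, 86.1% for Srsf10 and 86.0% for Hnrnpa1 (27 other genes, 26 of them pseudogenes). Among the Snrp genes it was 83.0% for Snrpf, 79.4% for Snrpe, 74.5% for Snrpd2, 63.3% for Snrpa and 59.6% for Snrpd1. Among the other members called below it was 84.3% for Sf3b4, 72.9% for Hnrnph2, 70.6% for Srsf5 and 58.7% for Srsf4. How multi-mapping reads were treated is not given in the sources used here, so the levels of these members are uncertain. Sf3b1, Snrpd3, Srsf6, Srsf9, Srsf11 and Hnrnpll shared no word with another gene.

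Depth could be read from the spacing of low values in the 8 RP libraries, at 8.85 to 26.2 M reads, and not in the others. Replicates correlated at r = 0.945 to 0.967 across all genes. The total RNA library at 1 h, with no replicate, had 55 genes at 0 FPKM. Resting total RNA of replicate 2, which enters the tests, had 40, and the other total RNA libraries had 0 to 6. At 1 h 443 genes were at least 2-fold below the 0 h library of the same replicate, against 77 as far above it. Of the Th1 marker list 8 of 9 genes were in the table, and their summed level was 599 FPKM or more in every library. All 6 CD8 T cell markers were in the table, and their sum in resting total RNA was 326 FPKM in replicate 1 and 29.3 in replicate 2. The B cell markers summed to 17.3 and 4.19 FPKM in resting 4sU RNA and to 1.84 and 2.04 at 4 h, and the dendritic cell markers to 168 and 532 at rest and 79.7 and 324 at 4 h. The part of such cells in the results below was not tested, and in these bulk samples fewer cells of a type and less RNA per cell cannot be told apart.

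In resting cells the members lay above the typical gene in every kind of library. FPKM are fragments scaled to gene length and library size, which lets levels be set side by side between genes within a kind. The lengths used and the treatment of multi-mapping reads are not given, so the order of members is uncertain. Hnrnpf and Hnrnpa1, for example, share 97.9% and 86.0% of their words with other genes. The median member stood at 30.5 FPKM in 4sU RNA against 12.7 for all genes tested, at 43.3 against 8.56 in total RNA and at 172 against 21.7 in RP. In total RNA 44 of 47 members exceeded the median of all genes, and in RP 46 of 47 did. Hnrnpf, which binds runs of G, led in 4sU RNA (268 ± 64.0 FPKM, SD, n = 2) and in total RNA (283 ± 26.2), followed in total RNA by Hnrnpa1 (183 ± 33.6) and Hnrnpa2b1 (157 ± 23.8). The SDs of Hnrnpa1 and Hnrnpa2b1 overlap. Hnrnpll was the lowest member in total RNA, at 5.24 and 3.81 FPKM. In RP the order began with Hnrnpa2b1, at 1066 and 2063 FPKM, and Snrpd3, at 1433 and 1246, which did not differ beyond their spread.

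**Figure D1:**
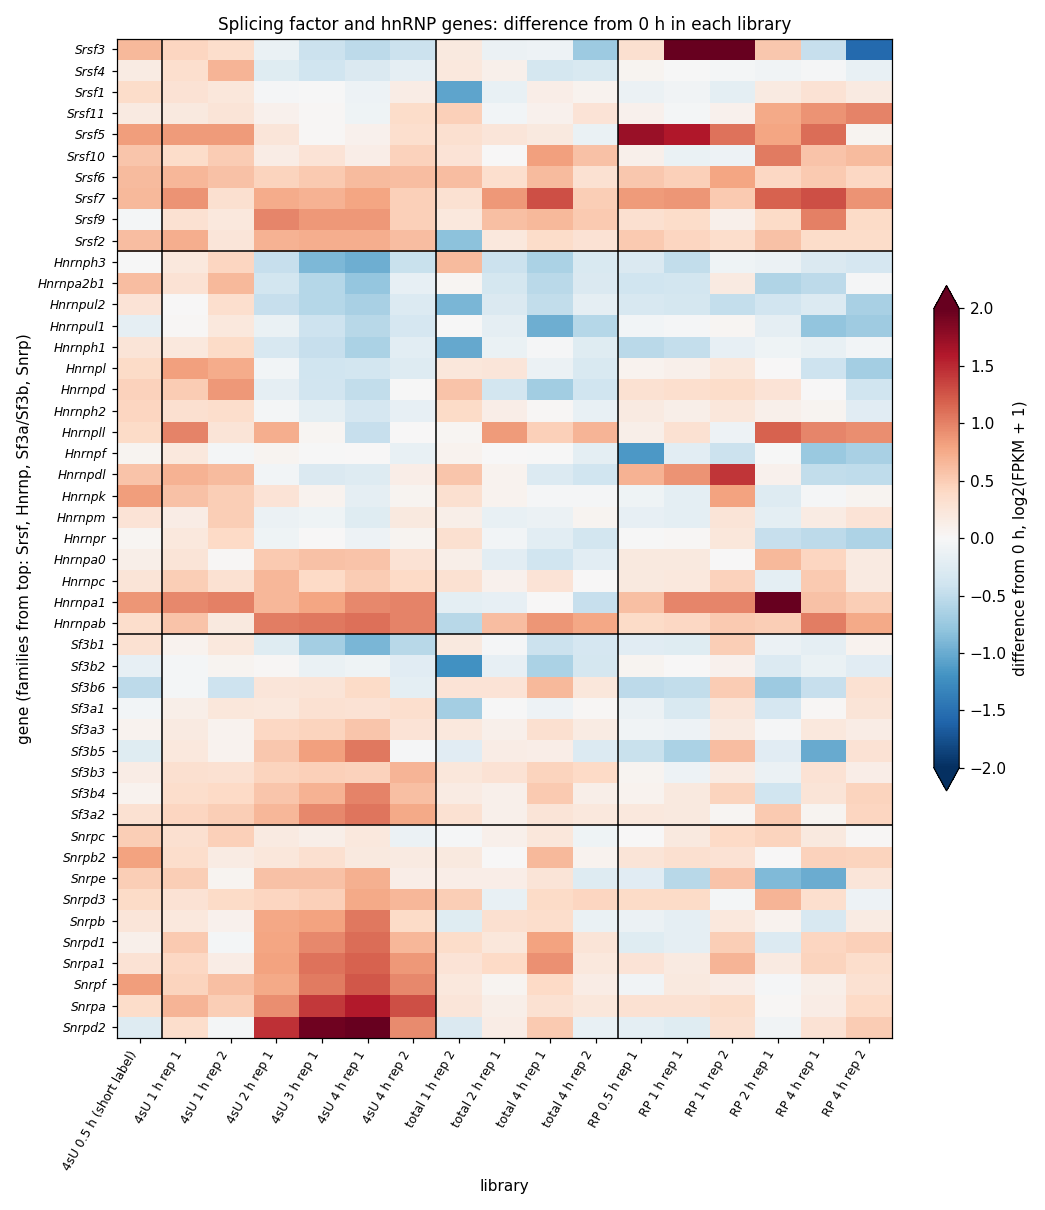
Difference from 0 h of each of the 47 members (rows, grouped by family and ordered by the 4sU change at 4 h) in each library (columns), on the log2(FPKM + 1) scale; the 0 h reference is the mean log2 value of both 0 h libraries of the kind, or the 0 h library with the 0.5 h label, and colours end at 2 on either side. Most Srsf and Hnrnp rows are red at 1 h in the 4sU libraries, and the Snrp rows at the bottom deepen towards 4 h.

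One hour after restimulation the newly transcribed RNA of nearly all members stood above rest by a small amount. The difference from 0 h was positive for 46 of 47 members, against 46.4% of all genes, with a median of 0.33 on the log2(FPKM + 1) scale against -0.03 for all genes. Both replicates were higher in 44 of 47 members (93.6%), against 36.1% of all genes. By family the median difference was 0.46 for Srsf, 0.36 for Hnrnp, 0.28 for Snrp and 0.14 for Sf3a and Sf3b. Calls required a Benjamini-Hochberg adjusted p under 0.05 in limma. No member was called (0.183% of all genes were), and 12 members had an unadjusted p below 0.05.

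The replicate numbers pair the libraries across the series, and with the number as a block 7 members were called higher and none lower (14.9% of the members). Of all genes 10.6% were then called, 5.21% higher and 5.42% lower. Srsf5, an SR protein, measured 86.7 and 88.1 FPKM at 0 h and 158 and 158 at 1 h in replicates 1 and 2. Its difference was 0.85 ± 0.20 (SE; limma adjusted p = 0.207, and 0.021 with the block). Hnrnpa1 measured 59.3 and 62.0 FPKM at 0 h and 119 and 123 at 1 h, a difference of 0.99 ± 0.18 (limma adjusted p = 0.151, and 0.0118 with the block). The groups did not overlap in either gene. Hnrnpl, a repressor of CD45 exons, went from 96.5 and 86.8 to 162 and 154 FPKM, a difference of 0.78 ± 0.19 (limma adjusted p = 0.213, and 0.024 with the block). The others called with the block alone were Hnrnpd (0.69), an AU-rich element binding protein, Hnrnpdl (0.66), Srsf6 (0.62) and Srsf7 (0.61). The largest differences of the other families were 0.58 for Snrpa among the Snrp genes and 0.46 for Sf3a2 among the Sf3a and Sf3b genes, neither called in either fit. Sf3b6 was the 1 member below rest, at -0.23.

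The separate libraries with 0.5 h of labelling gave the earliest view, with 1 library per time and so no test. Of 46 members with at least 5 FPKM on average, 10 were at least 1.5-fold higher at 0.5 h and none was 1.5-fold lower, beside 6.79% of all genes past that fold in either direction and 3.35% higher. The median member differed by 0.31 and the median gene by -0.03. Hnrnpa1 went from 69.2 to 129 FPKM, a log2 difference of 0.88, and Hnrnpk from 68.8 to 123 FPKM, a difference of 0.83. Snrpf, at 4.76 and 9.26 FPKM (0.83), is 1 of the 10 but reached the 5 FPKM average only through its 0.5 h value. Srsf made up 5 of the 10, namely Srsf5 (0.83), Srsf7 (0.65), Srsf3 (0.65), Srsf6 (0.64) and Srsf2 (0.61), and no Sf3a or Sf3b gene was past the fold. Snrpb2 (0.81) and Hnrnpa2b1 (0.62) complete them. The lowest values were -0.53 for Sf3b6, -0.25 for Snrpd2 and -0.18 for Hnrnpul1.

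**Figure D2:**
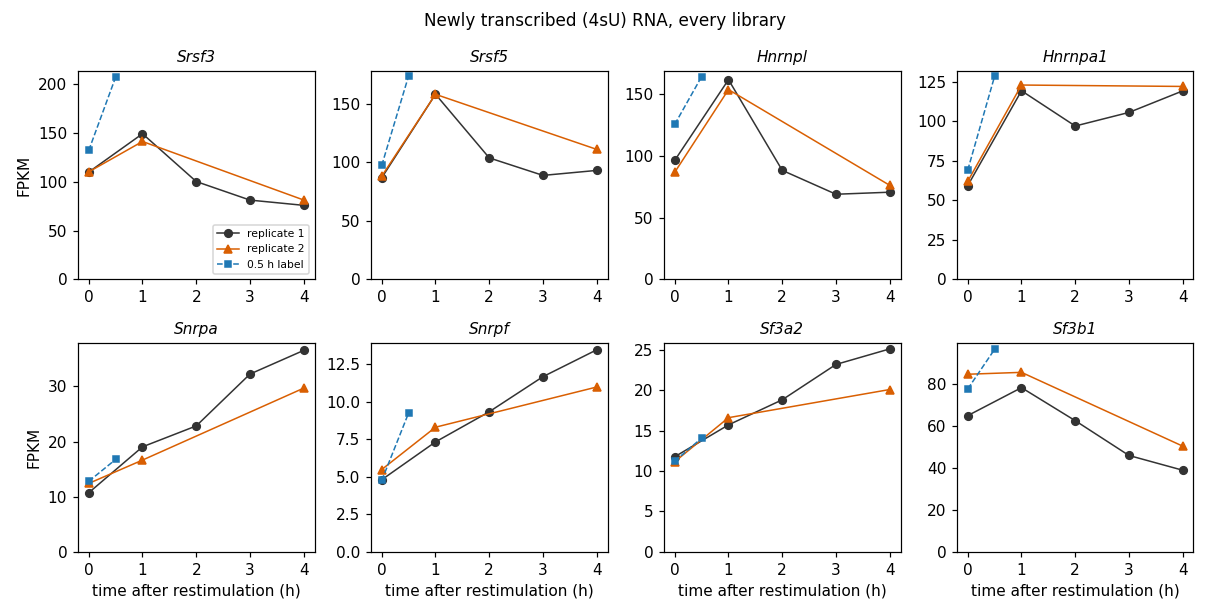
Newly transcribed RNA of 8 members in every 4sU library, in FPKM against hours after restimulation; circles and triangles are replicates 1 and 2 with the 1 h label, and squares are the separate pair with the 0.5 h label. Among the libraries with the 1 h label, Srsf3, Srsf5 and Hnrnpl are highest at 1 h, and Snrpa, Snrpf and Sf3a2 at 4 h. Hnrnpa1 is as high at 4 h as at 1 h. With the 0.5 h label, from 0 to 0.5 h, Srsf3 goes from 132 to 207 FPKM, Srsf5 from 97.25 to 174 and Hnrnpl from 126 to 164. That pair differs in dose and length of label, so its levels are not ranked against the 1 h label.

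The families then took different courses in the 4sU RNA. With the 1 h label, replicate 1 is the only one with all times. There 8 of 10 Srsf and 14 of 18 Hnrnp genes were highest at 1 h, against 22.5% of all genes. By contrast 8 of 10 Snrp and 5 of 9 Sf3a or Sf3b genes were highest at 4 h, against 23.3% of all genes. Over all members 25 of 47 (53.2%) were highest at 1 h, against 22.5% of all genes, and 1 was highest at 0 h, against 35.2%. When both replicates had to share the time among 0, 1 and 4 h, 21 members (44.7%) were highest at 1 h, against 1666 of the 9278 genes tested, and 18 (38.3%) at 4 h, against 27.5%. By family, 5 of 10 Srsf and 14 of 18 Hnrnp genes were then highest at 1 h, so the Srsf count was lower than in replicate 1. At 4 h 8 of 10 Snrp, 5 of 9 Sf3a or Sf3b and 2 of 10 Srsf genes were highest. No member had its highest value at 0 h in both replicates, against 28.7% of all genes.

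At 4 h the Snrp family had the most calls of the 4 families in newly transcribed RNA. Compared with 0 h, 12 members rose and 1 fell, 27.7% of the members against 33.3% of all genes called (14.4% higher and 18.9% lower). Of the Snrp genes 6 of 10 rose and none fell, with a median difference of 0.80 against -0.16 for all genes. Of the Sf3a and Sf3b genes 2 rose and 1 fell, of the Srsf genes 2 rose, and of the 18 Hnrnp genes 2 rose, with a Hnrnp median of -0.14. With the replicate block 20 members were called higher and 7 lower (57.4%, against 58.7% of all genes called, 23.3% higher and 35.4% lower).

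Snrpa, which binds a stem loop of U1 RNA, measured 10.7, 19.0, 22.8, 32.2 and 36.5 FPKM at 0, 1, 2, 3 and 4 h in replicate 1. In replicate 2 it measured 12.4, 16.6 and 29.7 FPKM at 0, 1 and 4 h. Both replicates were higher at each later time, and no value at 4 h overlapped rest. The difference at 4 h was 1.44 ± 0.18 (SE; limma adjusted p = 0.00424), and it was called in all 4 fits that each left out 1 of the 0 or 4 h libraries.

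Snrpf, an Sm protein, measured 4.81, 7.33, 9.34, 11.7 and 13.5 FPKM over the 5 times of replicate 1 and 5.49, 8.31 and 11.0 at 0, 1 and 4 h in replicate 2. The difference at 4 h was 1.10 ± 0.19 (limma adjusted p = 0.00829). Snrpd2, another Sm protein, went from 21.1 to 102 FPKM in replicate 1 and from 16.5 to 36.8 in replicate 2, so the replicates rose by unequal amounts. Its difference of 1.67 ± 0.46 (limma adjusted p = 0.0364) was 0.94 without replicate 1 at 4 h and was then not called. Snrpa1, a protein of the U2 snRNP, rose by 1.02 ± 0.20, and the Sm proteins Snrpd1 and Snrpd3 rose by 0.89 ± 0.27 and 0.71 ± 0.17. Snrpb, the Sm protein that pairs with Snrpd3, differed by 0.72 ± 0.25 and passed with the block alone (limma adjusted p = 0.0727, and 0.0105 with the block).

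Among the U2 snRNP subunits, Sf3a2 measured 11.8 and 11.2 FPKM at 0 h and 25.1 and 20.1 at 4 h, a rise of 0.91 ± 0.17 (limma adjusted p = 0.0118). Sf3b4 rose by 0.79 ± 0.20. Sf3b1, the large subunit that contacts the branch point, measured 64.8 and 84.4 FPKM at 0 h, 78.1 and 85.3 at 1 h and 38.8 and 50.3 at 4 h. It fell by 0.73 ± 0.22 on the log2 scale at 4 h (limma adjusted p = 0.0486), and was not called when libraries were rescaled to a common median ratio (-0.57, adjusted p = 0.0857). The subunits of 1 complex therefore had differences of opposite sign in the same libraries, and neither replicate of Sf3b1 overlapped rest at 4 h.

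Of the RNA-binding regulators, Hnrnpab went from 90.3 and 77.0 to 180 and 166 FPKM at 4 h (1.04 ± 0.23, limma adjusted p = 0.019). Hnrnpa1 stayed at its 1 h level, with 119 and 122 FPKM at 4 h against 59.3 and 62.0 at rest (0.98 ± 0.18, limma adjusted p = 0.0109). Srsf9 rose by 0.67 ± 0.19 and Srsf6 by 0.63 ± 0.18. Srsf3, the smallest SR protein, measured 110 and 110 FPKM at 0 h and 75.7 and 81.2 at 4 h, and was called lower with the block alone (-0.48 ± 0.19, limma adjusted p = 0.0908, and 0.0281 with the block).

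These counts depended on single libraries. Fewer members were called at 4 h without replicate 1 at 4 h or without either library at 0 h, and more without replicate 2 at 4 h. Of all genes fewer were called in each of these fits, which leave 1 library in a group. The median member difference was 0.19 to 0.23 in them, and that of all genes -0.20 to -0.11. At 2 h no member was called (7.56% of all genes were, 3.87% higher and 3.69% lower), 10 members had an unadjusted p below 0.05 in limma, and 9 were called with the block, all higher (19.1%, against 31% of all genes). The 3 h group is a single library, so its test borrows the spread of the replicated times. There 6 members were called higher and none lower (12.8% of the members, against 20.1% of all genes called and 9.41% called higher), namely Snrpa (1.41), Snrpa1 (1.08), Hnrnpab (1.06), Snrpf (1.05), Sf3a2 (0.96) and Srsf9 (0.87). None of these was called without either replicate at 0 h, and 10 members were called higher and 1 lower with the block (23.4%, against 42.9% of all genes).

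**Figure D3:**
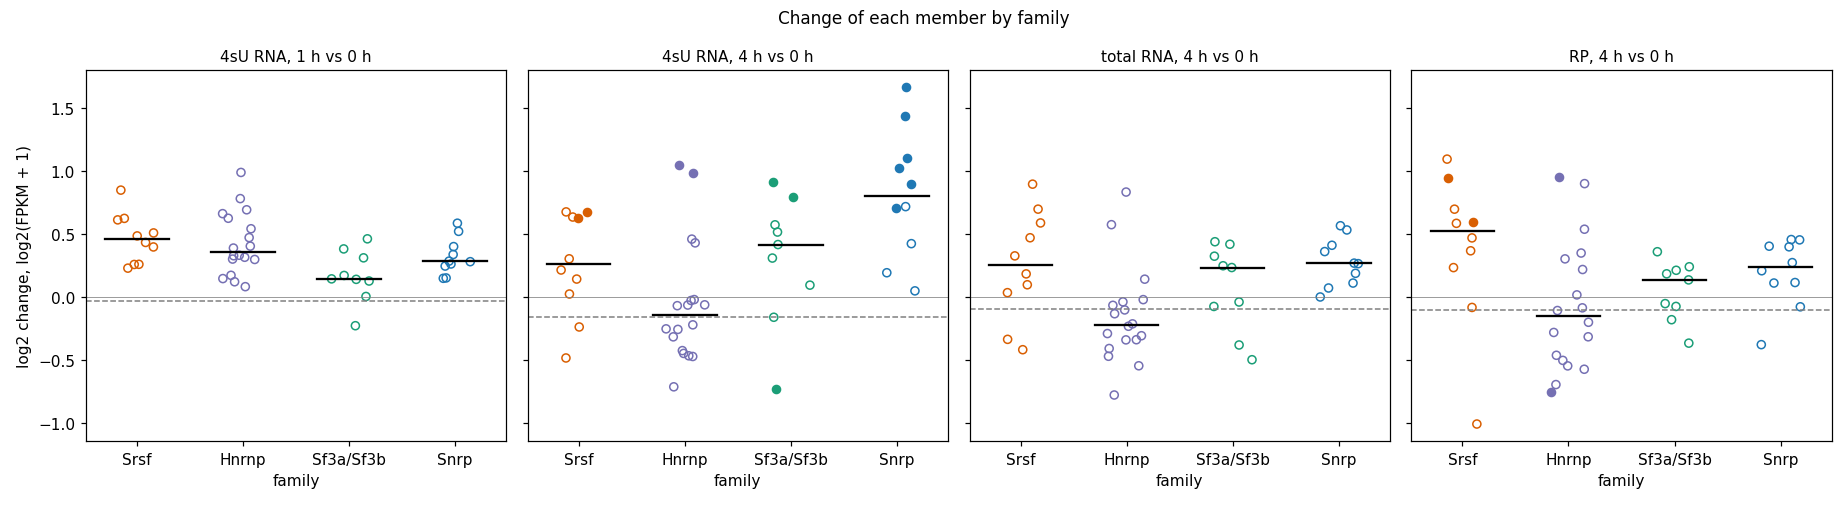
Difference from 0 h of each member by family, on the log2(FPKM + 1) scale, for 4sU RNA at 1 h and for 4sU RNA, total RNA and RP at 4 h; filled points passed an adjusted p of 0.05 in limma, black bars are family medians and the dashed line is the median of all genes. Nearly all points are positive at 1 h, and at 4 h the Snrp family holds 6 of the 13 filled points of 4sU RNA.

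The step from 1 to 4 h was compared in libraries of the same label. In 4sU RNA 2 members rose and 7 fell between 1 and 4 h (19.1% of the members, against 26.7% of all genes). The share called lower was 14.9% of the members and 14.7% of all genes, and the share called higher 4.26% and 11.9%. Hnrnpl fell from 162 and 154 to 70.7 and 76.2 FPKM, by 1.09 ± 0.19 on the log2 scale (limma adjusted p = 0.0123). The other Hnrnp genes that fell were Hnrnph3 by 1.04 ± 0.24, Hnrnpd by 0.95 ± 0.26 and Hnrnph2 by 0.58 ± 0.16. Srsf3 fell by 0.88 ± 0.19, Srsf4 by 0.74 ± 0.19 and Sf3b1 by 0.87 ± 0.22. The rises were Snrpa by 0.85 ± 0.18 (limma adjusted p = 0.0227) and Snrpa1 by 0.74 ± 0.20 (0.0392).

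The Hnrnp median over this step was -0.59 and the Snrp median 0.57, against -0.13 for all genes. In both replicates 15 of 18 Hnrnp genes were lower, against 49.1% of all genes, and 8 of 10 Snrp genes were higher, against 34.5% of all genes. After median-ratio scaling the split was 3 members called higher and 5 lower, with Srsf4 among those no longer called. Of 9280 genes 1295 were then called higher and 1098 lower. The blocked fit placed 9 members higher and 15 lower (51.1%, against 54.1% of all genes called, of which 22% higher and 32.2% lower). None of the calls made without the block held without replicate 1 at 4 h or without either library at 1 h. More members were called without replicate 2 at 4 h. Of all genes fewer were called in each of these fits, which leave 1 library in a group.

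In total RNA, at 4 h against 0 h no member was called (13.5% of all genes were, 6.47% higher and 7.02% lower), 6 members had an unadjusted p below 0.05 in limma, and the median difference was 0.07 against -0.10 for all genes. With the replicate number in the fit, 7 members were called in the upward and 2 in the downward direction (19.1%, against 39.9% of all genes). Srsf7 measured 46.0 and 32.7 FPKM at 0 h and 96.7 and 54.9 at 4 h. Its difference was 0.89 ± 0.34 (limma adjusted p = 0.122, and 0.000379 with the block), and the groups did not overlap although the replicates differed widely in level.

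Hnrnpab measured 105 and 109 FPKM at 0 h and 198 and 183 at 4 h in total RNA, a difference of 0.83 ± 0.24 (limma adjusted p = 0.062, 0.000568 with the block, and 0.040 with median-ratio scaling). Srsf10 went from 18.4 and 17.3 to 32.1 and 27.1 FPKM, a difference of 0.70 ± 0.22 (limma adjusted p = 0.0836, and 0.00687 with the block). The others called higher with the block were Srsf9 (0.59), Hnrnpll (0.57), Snrpa1 (0.56) and Snrpd1 (0.53). Hnrnpul1, related to the scaffold protein hnRNP U, went from 85.4 and 95.6 to 45.3 and 60.6 FPKM (-0.77 ± 0.26, limma adjusted p = 0.0889, and 0.00179 with the block). Hnrnpd was the other member called lower with the block (-0.54).

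The Snrp genes, which led in 4sU RNA at 4 h, had a total RNA median of 0.27, and none passed without the block. Snrpa measured 18.9 and 25.6 FPKM at 0 h and 27.4 and 26.0 at 4 h in total RNA. The difference between the 4sU and the total RNA change was tested as an interaction, and no member or other gene was called (0 of 9033 genes in limma, with 526 genes and 6 members at an unadjusted p below 0.05). With the block it was called for Snrpa (1.17 ± 0.28, limma adjusted p = 0.433, and 0.0398 with the block) and Hnrnpa1 (1.21 ± 0.32, limma adjusted p = 0.542, and 0.0393 with the block), 4.26% of the members against 1.97% of all genes.

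In the single total RNA library at 1 h, 9 members had their lowest total RNA value, against 23.4% of all genes, and 14 their highest, against 14.7% of all genes. Srsf1, the founding SR protein, stood at 47.9 FPKM there against 88.1 in the next lowest library, and Srsf2 at 48.4 against 86.1. Hnrnph1 stood at 44.3 against 77.0, Sf3b2 at 31.8 against 47.9 and Sf3a1 at 12.5 against 19.1. Of those highest there, Hnrnph3 stood at 11.9 FPKM against 7.85 in the next highest library and Hnrnpd at 16.3 against 11.1. In 4sU RNA Srsf1 measured 117 and 111 FPKM at 1 h against 97.9 and 92.4 at 0 h, and in RP 717 and 659 against 840 and 675. As the only library of its time, it enters no tested comparison of total RNA and adds nothing to the estimated spread.

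In ribosome-protected fragments at 1 h against 0 h no member was called (0.14% of all genes were), 4 members had an unadjusted p below 0.05 in limma, and the median difference was 0.12 against -0.04 for all genes. Srsf3 moved most. It measured 53.5 FPKM at 0 h, 72.1 at 0.5 h, 249 at 1 h, 83.9 at 2 h and 41.5 at 4 h in replicate 1. In replicate 2 it measured 61.5, 427 and 18.9 FPKM at 0, 1 and 4 h.

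Both 1 h libraries of Srsf3 lay above every other RP library. The difference at 1 h was 2.49 ± 0.42 (limma adjusted p = 0.2, and 0.0349 with the block, where it was the only member called, 2.13% against 1.97% of all genes called and 1.42% called higher). It ranged from 2.10 to 2.87 when single libraries were left out. Between 1 and 4 h Srsf3 fell by 3.49 ± 0.42 on the log2 scale (limma adjusted p = 0.0127). In the same step its total RNA cannot be followed with replicates, and its 4sU RNA fell by 0.88 ± 0.19.

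Srsf5 measured 187 FPKM at 0 h, 603 at 0.5 h, 549 at 1 h, 313 at 2 h and 393 at 4 h in RP of replicate 1, and 174, 386 and 187 at 0, 1 and 4 h in replicate 2. The 1 h difference was 1.35 ± 0.39 and missed the threshold (limma adjusted p = 0.34, and 0.0508 with the block). Hnrnpdl went from 75.8 to 237 FPKM in replicate 1 and from 213 to 344 in replicate 2, a difference of 1.16 ± 0.49 with groups that did not overlap (limma adjusted p = 0.483, and 0.111 with the block). In the single RP library at 0.5 h, 3 members were at least 2-fold above the 0 h library of the same replicate and 1 was 2-fold below (8.51%, against 4.98% of all genes past that fold), Hnrnpf at 197 against 538 FPKM.

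**Figure D4:**
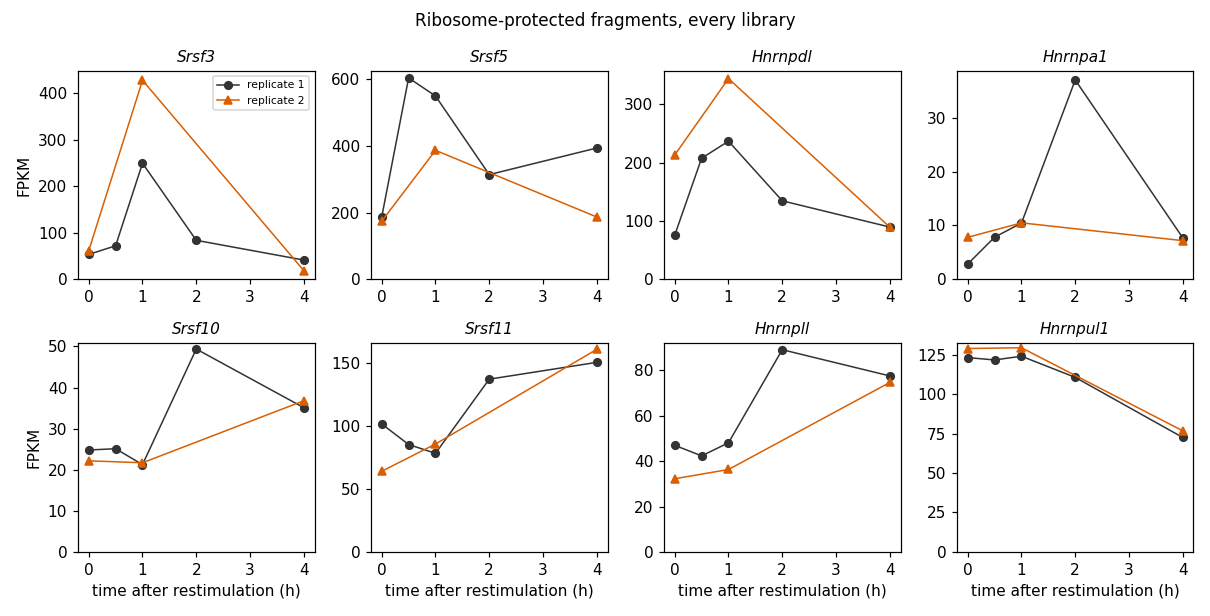
Ribosome-protected fragments of 8 members in every RP library, in FPKM against hours after restimulation, with replicate 1 as circles and replicate 2 as triangles. Srsf3 has its highest value at 1 h in both replicates, and Srsf10, Srsf11 and Hnrnpll are higher, and Hnrnpul1 lower, at 4 h than at 0 h in both.

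At 4 h against 0 h 3 members rose and 1 fell in RP (8.51% of the members, against 25% of all genes), while the blocked fit called 7 upward and 4 downward (23.4%, against 48% of all genes). Hnrnpll, the CD45 exon repressor of activated T cells, measured 47.0 and 32.2 FPKM at 0 h and 77.6 and 74.7 at 4 h, a rise of 0.95 ± 0.25 (limma adjusted p = 0.0401). Srsf11 went from 101 and 63.9 to 150 and 161 FPKM (0.94 ± 0.25, limma adjusted p = 0.0447). Srsf10, an SR protein that acts as a splicing repressor when dephosphorylated, went from 24.8 and 22.2 to 35.1 and 36.8 FPKM (0.60 ± 0.16, limma adjusted p = 0.0448).

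Hnrnpul1 went from 123 and 129 to 72.5 and 76.8 FPKM and fell by 0.75 ± 0.17 on the log2 scale (limma adjusted p = 0.0264). In none of these 4 members did the groups overlap. Of the 4 fits that each left out 1 of these libraries, Hnrnpll, Srsf10 and Hnrnpul1 were called in none, and Srsf11 in the 1 without replicate 1 at 0 h. The other calls in these fits were Srsf7 without replicate 1 and Hnrnpa1 without replicate 2 at 0 h. Members just short of the threshold were Hnrnpab (0.90 ± 0.26, limma adjusted p = 0.052, and 0.0178 with the block) and Srsf7 (1.09 ± 0.37, limma adjusted p = 0.0821, and 0.00626 with the block). The Snrp median was 0.24 and no Snrp gene was called without the block.

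Between 1 and 4 h in RP, Srsf10 rose by 0.72 ± 0.16 (limma adjusted p = 0.0404), and Srsf3 and Hnrnpul1 fell, the latter by 0.76 ± 0.17 (limma adjusted p = 0.0378), 6.38% of the members against 14.1% of all genes called and 7.65% called higher. None of the 3 was called when any 1 of the 1 or 4 h libraries was left out, and 9 members were called with the block (19.1%, against 36.7% of all genes). Whether RP changed beyond total RNA at 4 h was tested as an interaction. No member and none of 9021 genes was called in limma (241 genes and 1 member, Srsf11, had an unadjusted p below 0.05), and with the block no member and 0.0333% of all genes were called.

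Hnrnpll and Hnrnpul1 can be set side by side across the kinds of library, with the caution that each kind was scaled alone. Hnrnpll measured 8.08 and 7.94 FPKM in 4sU RNA at 0 h, 16.8 and 9.81 at 1 h and 5.58 and 8.10 at 4 h, so its 4 h groups overlapped rest. Its total RNA went from 5.24 and 3.81 to 6.60 and 7.74 FPKM at 4 h. Hnrnpul1 in 4sU RNA went from 53.9 and 62.8 to 39.1 and 46.0 FPKM (-0.45 ± 0.19, limma adjusted p = 0.113, and 0.0221 with the block). The 4 h value of Hnrnpul1 was thus below rest in both replicates of all 3 kinds.

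In resting cells the families also differed in newly transcribed against total RNA. On the FPKM scale 2 members were higher and 16 lower in 4sU than in total RNA (38.3% of the members, against 48.8% of all genes), while 40.3% of all genes were called higher and 8.46% lower. The median member differed by -0.39 and the median gene by 0.52. All 10 Snrp genes were lower and 8 of them were called, among them Snrpd2 with 21.1 and 16.5 FPKM in 4sU RNA and 112 and 101 in total RNA. That difference was -2.44 ± 0.43 (limma adjusted p = 0.0028).

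Snrpf (-1.82 ± 0.19), Snrpe (-1.30 ± 0.26) and Snrpd3 (-1.23 ± 0.21) followed, and of the Hnrnp genes Hnrnpa1 (-1.56 ± 0.23), Hnrnpm (-1.24 ± 0.24) and Hnrnpa2b1 (-0.94 ± 0.28) were lowest. Sf3b5 was called lower (-0.98 ± 0.32), and Sf3a1 (0.65 ± 0.15) and Srsf4 (0.53 ± 0.17) were called higher. No Srsf gene was called lower. With median-ratio scaling, which brought the median gene to 0.08, 28 were called lower and none higher, while of all genes 1558 were called lower and 1473 higher. The blocked fit called 21 lower and 9 higher (63.8%, against 67.6% of all genes called, 12.6% lower and 55% higher). Fewer members, and fewer of all genes, were called when either resting 4sU library was left out. Without replicate 1 the median member then differed by -0.33 and the median gene by 0.51. Without replicate 2 these medians were -0.35 and 0.51.

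**Figure D5:**
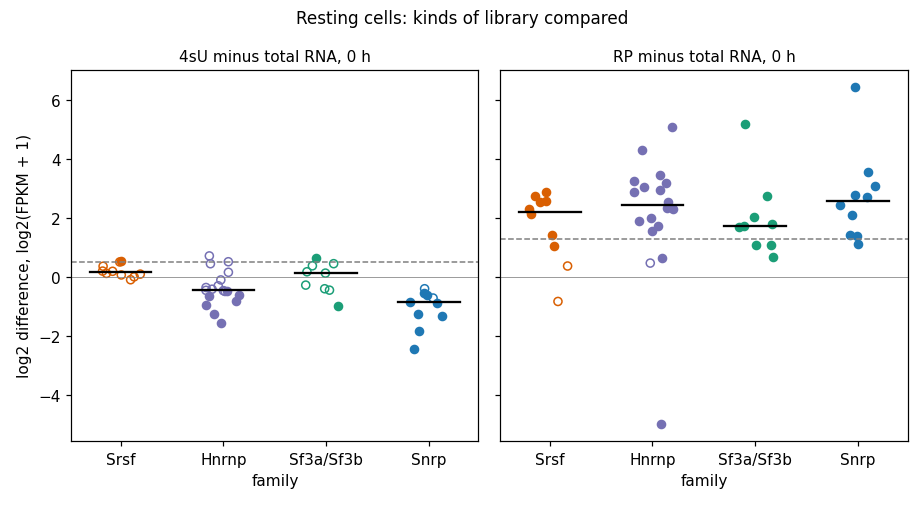
Difference between kinds of library in resting cells for each member by family, on the log2(FPKM + 1) scale, 4sU minus total RNA on the left and RP minus total RNA on the right; filled points passed an adjusted p of 0.05 in limma, black bars are family medians and the dashed line is the median of all genes. The Snrp family lies lowest on the left, and Hnrnpa1 at -4.97 is the lowest point on the right.

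RP against total RNA at rest may compare values scaled to different lengths. The RP values fitted the coding length of the genes, and the length used for total RNA could not be read from its values. The ratio of exon to coding length differs from gene to gene, so neither the sign nor the order of these differences separates ribosome load from length. On the FPKM scale 43 members were called higher and 1 lower in RP (93.6% of the members, against 74.9% of all genes). After median-ratio scaling 25 members were called higher and 6 lower, while of 9102 genes 2131 were called higher and 2020 lower. Without that scaling the median member differed by 2.29 and the median gene by 1.29. Snrpd3 stood highest, at 1433 and 1246 FPKM in RP and 11.5 and 17.9 in total RNA (6.44 ± 0.28, limma adjusted p = 3.08e-06), followed by Sf3b5 (5.19 ± 0.55), Hnrnpd (5.09 ± 0.22) and Hnrnpa0 (4.28 ± 0.23). Snrpd3 had 3442 bases of annotated exon and 391 coding bases, and Sf3b5 had 3841 and 258.

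Hnrnpa1 was the only member called lower. It measured 2.85 and 7.81 FPKM in RP at 0 h and 206 and 159 in total RNA, a difference of -4.97 ± 0.36 (limma adjusted p = 9.12e-06). Its RP values stayed between 2.85 and 37.0 FPKM in all 8 libraries, the highest in the single library at 2 h. Of its coding 29-base words 86.0% recur in other annotated transcripts, and the part of this in its RP level was not tested. Srsf3 was next lowest (-0.82 ± 0.40) and was not called.

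Other genes of the splicing machinery were read from a list of 149 genes, of which 143 were in the table. In 4sU RNA at 4 h against 0 h, 26 rose and 13 fell, beside 14.4% of all genes called higher and 18.9% lower. A group of 16 genes covered snRNP assembly by the SMN and PRMT5 complexes, which load Sm proteins onto RNA, and the export of small nuclear RNAs. Of these 11 rose and none fell, among them Wdr77 (1.72 ± 0.26), a PRMT5 partner, and Strap (1.30 ± 0.23), a partner of SMN. Of the 17 genes listed with the U5 and tri-snRNP proteins 5 rose, among them Prpf31 (1.30 ± 0.18) and Txnl4a (0.94 ± 0.28). That group also held Snrnp70, Snrnp25, Snrnp35 and Snrnp48, which are not U5 or tri-snRNP proteins. Of the 20 SR-related proteins and SR kinases none rose and 4 fell, among them the kinases Clk1 (-1.51 ± 0.31) and Srpk2 (-1.31 ± 0.21), which phosphorylate SR proteins.

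Of the 33 other splicing regulators 4 rose and 7 fell, with Mbnl1 (-1.33 ± 0.23) and Celf2 (-1.26 ± 0.34) lowest. The Prp19 complex and catalytic step genes had 2 higher and 1 lower of 20, with Prpf19 at 1.23 ± 0.26 and Prpf18 at -1.02 ± 0.24. The Lsm ring had 1 of 7 in each direction, Lsm7 at 1.69 ± 0.23 and Lsm8 at -0.75 ± 0.15. Of the 17 U1 and U2 partners 2 rose, Luc7l (0.61 ± 0.16) and U2af1 (0.54 ± 0.16), and of the 13 exon junction and decay genes 1 rose, Smg5 (0.68 ± 0.16). At 1 h no gene of the list was called in 4sU RNA (0.183% of all genes were). An unadjusted p below 0.05 in limma was found for 11 of the 143, against 1236 of all 9278 genes tested. With the block 7 of the 143 were called higher, against 5.21% of all genes, so neither count stood above that of all genes. The direction did differ, with 100 of the 143 (69.9%) above rest at 1 h, against 46.4% of all genes. Their median difference was 0.16, against -0.03 for all genes. By group the share above rest ran from 50% for the Prp19 complex and catalytic step to 94.1% for the U1 and U2 partners.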

How the data were processed

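The deposited values were FPKM in 24 libraries of 16 groups, which the authors made with featureCounts (Subread 1.4.6-p3) and GRCm38, both named in the submitters' processing notes. Not given in the sources used here: aligner, annotation, gene lengths, and how strand and multi-mapping reads were handled. The deposited table lacks low genes, the smallest maximum over libraries being 0.97 FPKM in 4sU RNA, 0.97 in total RNA and 0.99 in RP. FPKM do not state depth. Identifiers of 9412 genes matched GENCODE M21 and 8 did not.

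One model per kind of library, holding every time, was fitted in limma 3.58.1 (R 4.3.3) on log2(FPKM + 1), with a variance trend and Benjamini-Hochberg adjustment over genes of at least 1 FPKM on average (9278 for 4sU RNA, 9078 for total RNA, 9312 for RP). Differences between kinds were tested in 1 model over both kinds. Residual degrees of freedom without the replicate block: 4sU RNA 3, total RNA 2, RP 3, both kinds together 5. The block takes 1 of these from each fit, so calls made with it alone rest more on the spread shared over genes. Times with 1 library borrow the spread of the replicated times. The pseudocount of 1 understates the change of low genes. The fit was tested on simulated data. Alternatives were a pseudocount of 0.1, no filter, median-of-ratios scaling, the replicate number as a block and leaving out each replicate. Scaling moved the median of all genes by 0.13 at 2 h, 0.16 at 3 h and 0.15 at 4 h against 0 h in 4sU RNA, by 0.11 for 4 h against 1 h, by 0.10 in total RNA at 4 h and by -0.44 and -1.25 for 4sU and RP against total RNA at rest.

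Deviations of same-numbered libraries from their group means correlated in all 28 pairs of replicated groups above 0.1 (0.308 to 0.792, median 0.596), so the numbers were taken to pair the libraries; this comes from the data, since the labels do not state it.

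Named members were, per family and comparison, the 3 called with the largest change in each direction or else the 1 with the largest change, and 22 genes followed throughout, of which Hnrnpu and Snrpn were not analysed here. Of the other list, the 2 called genes of each group with the largest 4sU change at 4 h were named. Other members named beside these were chosen after their values were seen. The members and lists were chosen with earlier results of these data known. Shared words were counted over 29 bases in GENCODE M21 transcripts with Python 3.11.15.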

Additional observations from a re-analysis of the deposited data

How the results depend on the processing

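With the replicate number as a block, which the pairing of the numbers warrants, more members were called in most comparisons. In 4sU RNA the numbers were 7 at 1 h, 9 at 2 h, 11 at 3 h and 27 at 4 h against 0 h, and 24 at 4 h against 1 h. They were 9 for total RNA at 4 h, 1 for RP at 1 h, 11 for RP at 4 h, 9 for RP at 4 h against 1 h, 2 for the interaction of 4sU with total RNA, and 30 between 4sU and total RNA at rest. The block ended no call made without it in the members named. Median-ratio scaling called 1 member in total RNA at 4 h and 28 for 4sU against total RNA at rest. For RP against total RNA at rest it turned the direction of 4 of the members named for that comparison. These were Srsf5 (-0.38), Srsf10 (-0.99), Snrpd1 (-0.052) and Sf3b1 (-0.32), and directions are not listed for members outside that naming rule. In this comparison the scaling moved the median of all genes by -1.25. Leaving out 1 library at a time gave 0 members called at 3 h, 2 to 15 at 4 h and 0 to 15 for 4 h against 1 h in 4sU RNA, 0 to 2 for RP at 4 h, 0 for RP at 4 h against 1 h, and 8 to 12 for 4sU against total RNA at rest. Of all genes, too, fewer were called in each of these fits than with every library. The causes of these changes were not tested. A pseudocount of 0.1 and no filter kept every number of members called within 1.5 times. With 2 libraries a group, and with depth unknown outside RP, a member that missed the threshold is not shown to be unchanged.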
